A study of Rattus norvegicus with 9 samples.

Results

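The epidermal growth factor (EGF) receptor family was examined in 9 rat bladder samples: its 4 receptors (Egfr, Erbb2, Erbb3 and Erbb4) and 6 of its ligands (Areg, Ereg, Hbegf, Tgfa, Btc and Egf). These 10 genes were chosen by name, and every probe set that the array annotation assigns to a single one of them was taken, which gave 13 of 31042 probe sets. In all, 14217 genes were measured on these Affymetrix arrays. The samples were 3 bladder transitional cell carcinomas (BTCC), 3 adjacent normal tissues (ANTs) and 3 normal bladders. The tumors and ANTs came from the same 3 female SD rats, whose bladders had received 20 mg/ml of the alkylating carcinogen MNU weekly for 10 weeks, and the labels give an age of 10 weeks. The normal bladders came from 3 other female SD rats of the same labelled age, described as normal in the series design, although their labels carry the MNU text too. The tissue was whole, so each array measured epithelium, muscle, stroma and blood cells together, and no source used here gives the distance between an ANT and its tumor. Values are log2 MAS 5.0 signals, and a signal under 50 is called dim, because the spread between replicates widens below that level.

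The family works as a relay at the cell surface. Its ligands are made as membrane proteins and released by proteases of the ADAM family, mainly ADAM17. They bind receptors that pair up and signal through adaptors to the MAP kinase and PI3 kinase pathways. Amphiregulin, HB-EGF and TGF-alpha are autocrine growth factors of epithelia. ERBB2 has no known ligand of its own and acts as a partner of the others, and ERBB3 has little kinase activity. Egfr and Erbb2 are established genes of urothelial cancer in humans.

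Against normal bladder, 3 ligands (Areg, Hbegf and Tgfa) rose in tumors and in ANTs. The main receptor Egfr fell in tumors on 1 of its 3 probe sets, the brightest. In tumors, 4 of the 10 genes passed the limma threshold of an adjusted p under 0.05, against 23.5% of all genes. Of the 6 ligands, 3 were higher and 0 lower, where 13.6% of all genes were higher. Of the 4 receptors, 1 was lower and 0 higher, where 9.95% of all genes were lower. In ANTs, 3 of the 10 genes passed, all of them ligands that were higher, against 24.8% of all genes passing and 13.3% being higher. Counted by probe set, 5 of the 13 passed in tumors (18.0% of all probe sets did) and 4 in ANTs (18.9%). The median log2 fold change of the 6 ligands was 1.47 in tumors and 1.91 in ANTs, beside medians over all genes of 0.05 and 0.01. The count of 4 in tumors turned on single arrays. It was 6 without tumor 1 (Egf and Erbb2 in addition), 2 without tumor 3 (Areg and Tgfa), 1 without normal bladder 1 (Areg) and 2 without normal bladder 2 (Areg and Tgfa) or 3 (Areg and Egfr). The count of 3 in ANTs was 2 (Areg and Tgfa) without ANT 2 or any 1 of the normal bladders. Both comparisons used the same 3 normal arrays.

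**Figure D1:**
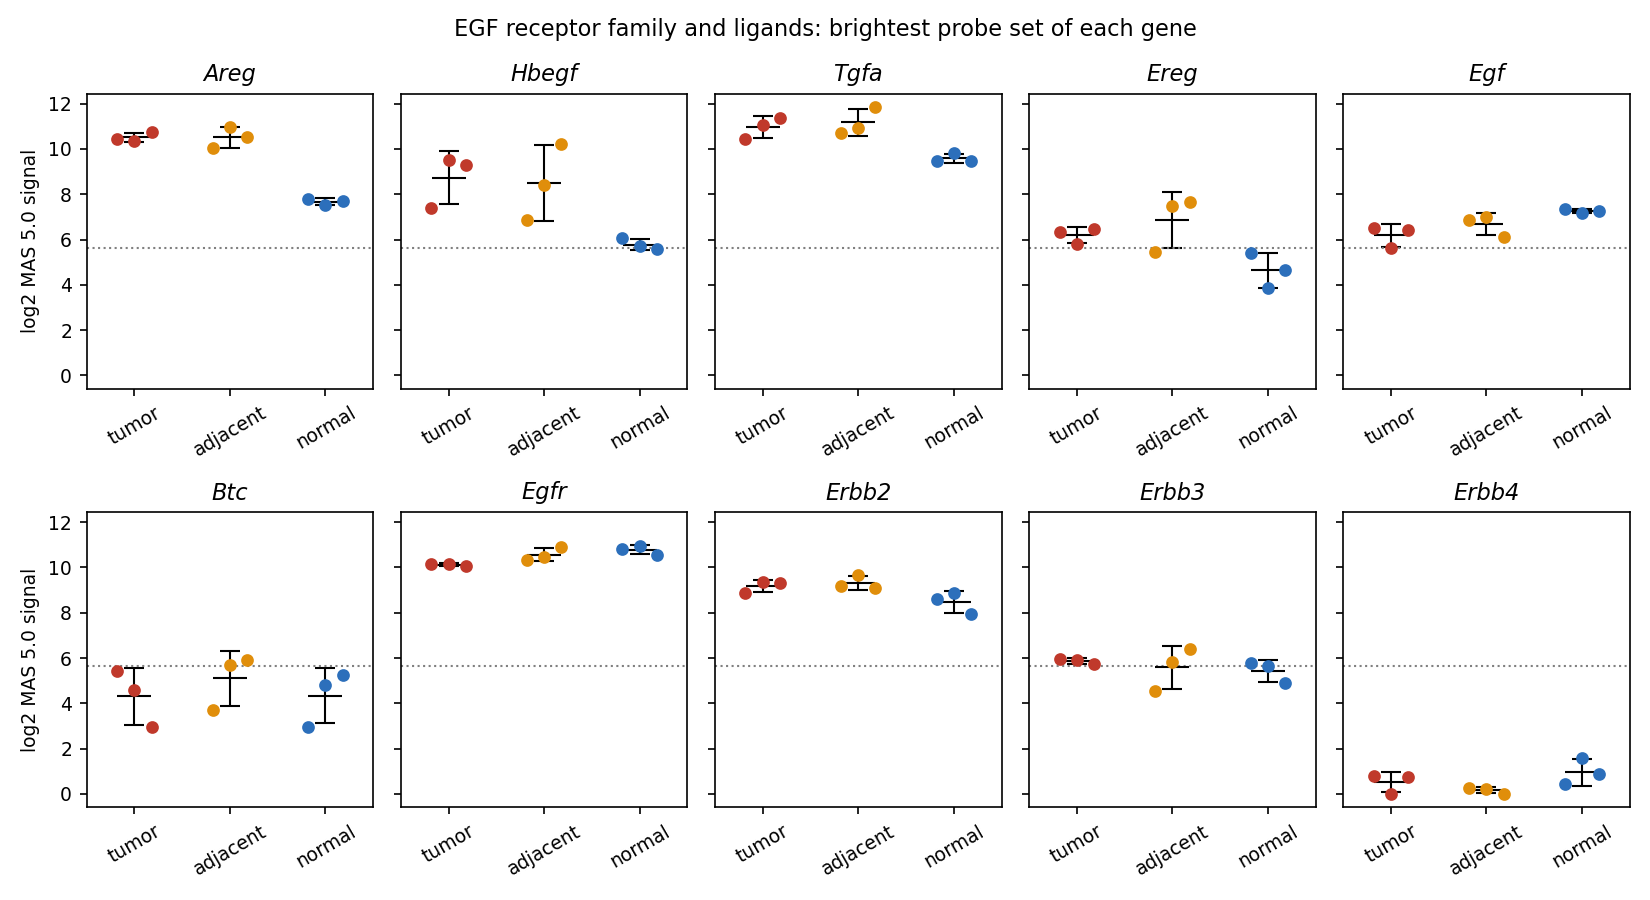
Log2 MAS 5.0 signal of the brightest probe set of each gene in tumors (red), adjacent normal tissues (orange) and normal bladders (blue); each point is 1 array (replicates 1 to 3 from left to right), bars show the mean and SD (n = 3), and the dotted line marks a signal of 50. Areg lies at means of 10.51 in tumors, 10.50 in adjacent tissues and 7.68 in normal bladders, with a clear gap, while Erbb4 lies near the floor in all groups.

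Areg encodes amphiregulin, an EGFR ligand of epithelia, and was the only member to pass under every alternative in both comparisons. Its probe set (1369871_at) had log2 signals of 10.44, 10.36 and 10.73 in tumors 1, 2 and 3, and of 10.04, 10.95 and 10.53 in ANTs 1, 2 and 3. The normal bladders had 7.79, 7.51 and 7.72. Every tumor and every ANT was thus above every normal bladder by over 2 log2 units. In linear signal the means were 1470 in tumors, 1501 in ANTs and 205.2 in normal bladders. Areg rose by 2.84 on the log2 scale in tumors (SE 0.16, 7.14-fold, adjusted p = 0.000512 by limma). In ANTs it rose by 2.83 (SE 0.24, 7.10-fold, adjusted p = 0.00068). Over 14 alternative analyses its adjusted p was at most 0.020 in tumors and 0.0275 in ANTs.

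Hbegf encodes heparin-binding EGF-like growth factor, which binds both EGFR and ERBB4. Its probe set (1368983_at) had log2 signals of 7.38, 9.49 and 9.29 in tumors 1, 2 and 3. In ANTs 1, 2 and 3 it had 6.85, 8.40 and 10.20, and in normal bladders 6.05, 5.70 and 5.58. The groups did not overlap with normal bladder, but replicate 1 was the lowest of the tumors and of the ANTs by over 1.5 log2 units. Hbegf rose by 2.94 in tumors (SE 0.55, 7.68-fold, adjusted p = 0.014) and by 2.71 in ANTs (SE 0.73, 6.53-fold, adjusted p = 0.0378). In tumors the call was lost without tumor 3 (adjusted p = 0.056) or without normal bladder 1, 2 or 3 (0.0546, 0.0619 and 0.0642). In ANTs it was lost without ANT 2 (0.0905) or normal bladder 1, 2 or 3 (0.0978, 0.115 and 0.124), while without tumor 1 or ANT 1 the rise was 3.61 and 3.52 (adjusted p = 5.52e-05 and 0.00412). The call in ANTs was also lost with 50 added to the signal (adjusted p = 0.0555), without a variance trend (0.0987) and by the methods' t-test after adjustment (0.177), which ended the call in tumors too (0.0918).

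Tgfa encodes transforming growth factor alpha, an EGFR ligand, and was measured by a pair of probe sets that moved together. The brighter (1381449_s_at, whose suffix marks probes shared by several transcripts) had log2 signals of 10.44, 11.07 and 11.37 in tumors and of 10.71, 10.93 and 11.85 in ANTs. Normal bladders had 9.48, 9.80 and 9.45. The dimmer one (1387450_at) had 8.77, 9.78 and 10.06 in tumors, 9.15, 9.47 and 10.74 in ANTs, and 8.28, 8.31 and 8.24 in normal bladders. No tumor or ANT overlapped the normal bladders on either probe set, and replicate 1 was again the lowest of its group. On the brighter probe set Tgfa rose by 1.38 in tumors (SE 0.24, 2.60-fold, adjusted p = 0.0119) and by 1.58 in ANTs (SE 0.28, 3.00-fold, adjusted p = 0.00833). On the dimmer one it rose by 1.26 (SE 0.32, adjusted p = 0.0357) and by 1.51 (SE 0.37, adjusted p = 0.0276). The call in tumors was lost without normal bladder 1 (adjusted p = 0.0591) or 3 (0.0587), and the call in ANTs held without each array. The methods' t-test after adjustment ended both (adjusted p = 0.0803 in tumors and 0.0828 in ANTs).

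The stretches before the start sites of the 3 ligands that rose, and of Egfr, are shown because these are the members that passed the threshold in tumors, Egfr on 1 of its 3 probe sets. Each is the 250 bases 5′ of the RefSeq start site in the GRCr8 build, read in the direction of the gene. They lie at chr14:17265642-17265891 (Areg, minus strand), chr18:28390221-28390470 (Hbegf, minus strand), chr4:120175469-120175718 (Tgfa, plus strand) and chr14:95378376-95378625 (Egfr, plus strand). Capitals mark matches, on either strand, to the cyclic AMP response element TGACGTCA, the AP-1 site TGANTCA, the TATA box TATAAA, the GC box GGGCGG and the CCAAT box CCAAT.
Areg: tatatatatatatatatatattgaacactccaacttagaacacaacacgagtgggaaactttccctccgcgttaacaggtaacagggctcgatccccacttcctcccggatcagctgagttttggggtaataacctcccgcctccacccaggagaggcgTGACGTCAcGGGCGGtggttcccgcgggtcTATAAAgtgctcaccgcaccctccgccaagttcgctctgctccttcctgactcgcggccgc
Hbegf: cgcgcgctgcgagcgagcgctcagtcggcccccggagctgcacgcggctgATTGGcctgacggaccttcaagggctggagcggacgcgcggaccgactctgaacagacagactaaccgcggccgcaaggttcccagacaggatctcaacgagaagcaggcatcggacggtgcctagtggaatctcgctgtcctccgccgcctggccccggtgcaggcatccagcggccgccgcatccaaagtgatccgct
Tgfa: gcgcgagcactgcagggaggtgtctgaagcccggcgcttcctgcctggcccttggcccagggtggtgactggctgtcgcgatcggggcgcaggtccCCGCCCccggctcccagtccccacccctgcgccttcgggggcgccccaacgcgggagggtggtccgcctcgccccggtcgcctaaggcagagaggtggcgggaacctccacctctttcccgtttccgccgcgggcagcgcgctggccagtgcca
Egfr: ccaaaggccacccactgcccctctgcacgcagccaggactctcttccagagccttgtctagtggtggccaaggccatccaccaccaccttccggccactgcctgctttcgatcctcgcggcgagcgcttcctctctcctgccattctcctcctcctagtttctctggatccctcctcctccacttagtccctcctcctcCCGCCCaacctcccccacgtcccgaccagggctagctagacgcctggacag
In these windows TGACGTCA occurs only before Areg, where it begins 91 bases before the start, followed after 1 base by a GC box. Of all 33469 rat promoters in the table, 1.59% hold TGACGTCA within the same 250 bases, 12.9% hold TATAAA, 30.5% GGGCGG, 34.0% CCAAT and 6.34% TGANTCA. Areg also holds TATAAA, Hbegf a CCAAT box on the other strand, and Tgfa and Egfr a GC box on the other strand. A match describes letters, not binding. Of the 10 genes, 8 are in the promoter table, which leaves Ereg and Erbb3 without a sequence here. In the same assembly Btc, Areg and Ereg are neighbours, in that order, on chromosome 14.

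Ereg, Egf and Btc did not pass the threshold. Ereg encodes epiregulin, a ligand of EGFR and ERBB4. Its log2 signals were 6.33, 5.80 and 6.47 in tumors, 5.45, 7.50 and 7.67 in ANTs, and 5.40, 3.88 and 4.64 in normal bladders. The groups did not overlap with normal bladder, though ANT 1 was close to it. All 3 normal bladders were dim, so that Ereg was at least 1.47-fold higher in tumors (adjusted p = 0.0676) and at least 2.34-fold higher in ANTs (adjusted p = 0.0573). In ANTs the adjusted p by limma was 0.00813 without ANT 1, but 0.0838 to 0.178 without any other single array. In tumors it was 0.0737 to 0.177 when single arrays were left out.

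Egf encodes the founding ligand of the family, and ran the other way. Its log2 signals were 6.50, 5.61 and 6.42 in tumors, 6.88, 7.01 and 6.13 in ANTs, and 7.34, 7.15 and 7.27 in normal bladders. Every tumor and every ANT was below every normal bladder. The log2 fold change was -1.08 in tumors (SE 0.31, 95% interval -1.80 to -0.35, adjusted p = 0.0532) and -0.58 in ANTs (SE 0.30, interval -1.28 to 0.12, adjusted p = 0.236). In tumors the adjusted p by limma was 0.0241 without tumor 1, but 0.0819 to 0.167 without any other single array. Tumor 2 was dim for Egf, and without it the log2 fold change was -0.79. Btc encodes betacellulin, and its log2 signals ran between 2.94 and 5.41 in tumors, 3.71 and 5.89 in ANTs, and 2.95 and 5.26 in normal bladders. All tumors and normal bladders were dim for Btc, and no fold is given.

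**Figure D2:**
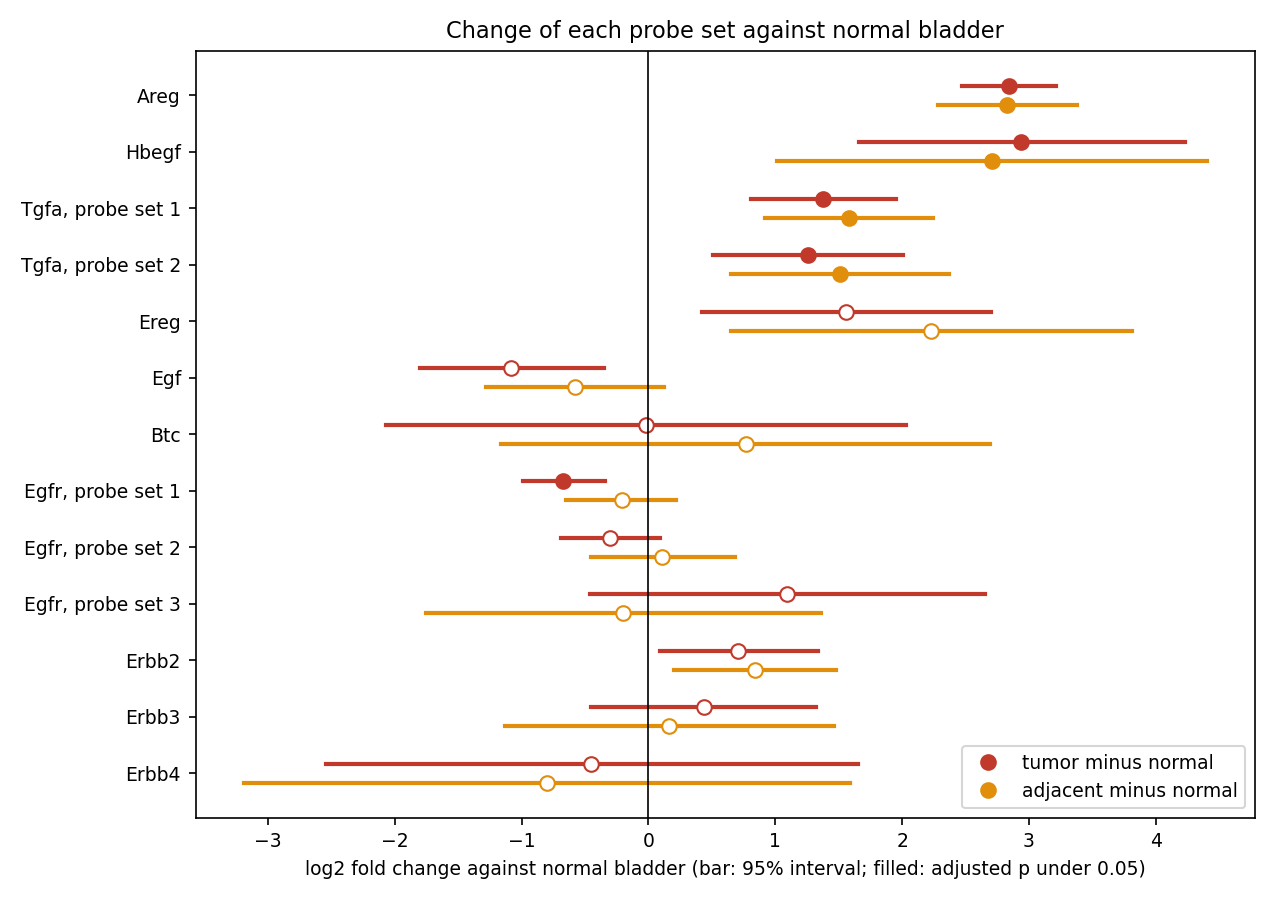
Log2 fold change of each of the 13 probe sets in tumors minus normal bladders (red) and in adjacent tissues minus normal bladders (orange); bars are 95% intervals from limma, and filled points have an adjusted p under 0.05. Areg stands at 2.84 and 2.83 with the narrowest bars among the ligands, and Egfr probe set 1 is the only receptor probe set with a filled point. The values of Btc, Erbb4 and Egfr probe set 3 rest on dim signals, and those of Ereg on dim normal bladders.

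Egfr, the receptor of all 6 ligands, was lower in tumors on its brightest probe set (1381145_at). That probe set had log2 signals of 10.13, 10.17 and 10.05 in tumors, 10.34, 10.45 and 10.91 in ANTs, and 10.83, 10.96 and 10.55 in normal bladders. The tumors lay below every other array, while the ANTs overlapped the normal bladders. Egfr fell by 0.67 in tumors (SE 0.14, to 63.0% of the normal level, adjusted p = 0.0196). In ANTs the log2 fold change was -0.21 (SE 0.19, 95% interval -0.65 to 0.22, adjusted p = 0.494). The other Egfr probe sets did not carry the fall. On 1370830_at the log2 signals were 8.21, 8.44 and 8.34 in tumors and 8.76, 8.73 and 8.40 in normal bladders, which overlap (log2 fold change -0.30, SE 0.17, adjusted p = 0.263). The last, 1385413_at, was dim on 2 of 3 tumors and on all ANTs and normal bladders, and its log2 fold change in tumors ran the other way (1.09, SE 0.66, adjusted p = 0.305). The call was lost without tumor 3 (adjusted p = 0.0648) or normal bladder 1 or 2 (0.0865 and 0.0859), and when arrays were centred on their medians (log2 fold change -0.46, adjusted p = 0.0858), without a variance trend (0.0737) and by the methods' t-test after adjustment (0.0678). Averaged over the 3 probe sets, the log2 difference was 0.04 (adjusted p = 0.922).

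The ERBB2, ERBB3 and ERBB4 genes did not pass in either comparison. Erbb2, the ligandless partner receptor, had log2 signals of 8.88, 9.35 and 9.32 in tumors, 9.16, 9.66 and 9.09 in ANTs, and 8.59, 8.88 and 7.93 in normal bladders (1387813_at). Tumor 1 and normal bladder 2 were almost level, and ANTs 1 and 3 lay close above normal bladder 2. Tumors 2 and 3 and ANT 2 lay further above. Its log2 fold change was 0.71 in tumors (SE 0.27, 95% interval 0.09 to 1.34, adjusted p = 0.11) and 0.84 in ANTs (SE 0.28, interval 0.20 to 1.48, adjusted p = 0.073). In tumors it was 0.86 without tumor 1 (adjusted p = 0.045 by limma), but the adjusted p was 0.104 to 0.256 without any other single array. In ANTs the adjusted p was 0.0687 to 0.204 when single arrays were left out. Erbb3, which pairs with ERBB2, had log2 signals of 5.95, 5.93 and 5.72 in tumors, 4.56, 5.82 and 6.41 in ANTs, and 5.77, 5.65 and 4.88 in normal bladders (1369088_at). These groups overlapped near the limit of 50 (log2 fold change 0.44, SE 0.38, adjusted p = 0.472 in tumors). Erbb4, a neuregulin receptor, was dim on all 9 arrays, with log2 signals of at most 1.58 (1369353_at), so no fold is given.

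Counting arrays rather than fits, the brightest probe set did not overlap between tumors and normal bladders in 7 of the 10 genes (5 higher and 2 lower), where 45.8% of all genes did not overlap (25.7% higher and 20.1% lower). Between ANTs and normal bladders it was also 7 of 10, 5 higher and 2 lower with Erbb4 at dim signals among the lower ones, against 46.7% of all genes (24.8% higher and 21.9% lower). An exact two-sided permutation test of 3 arrays against 3 cannot give a p under 0.1, which is what each of these genes gave.

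Between tumors and ANTs, 0 of the 10 genes passed, as did 0 of 31042 probe sets (0% of all genes). At an unadjusted p under 0.05, limma gave 845 probe sets and the methods' t-test 1029. The tumor and ANT arrays of Areg were level, with a log2 fold change of 0.01 (SE 0.25, 95% interval -0.58 to 0.59). The interval was -1.02 to 0.61 for Tgfa, and it was wide for Hbegf (-1.80 to 2.27) and Ereg (-2.09 to 0.75), whose ANTs were scattered. Egfr was lower in each tumor than in each ANT (log2 fold change -0.45, SE 0.19, adjusted p of 1 by limma, unadjusted p = 0.0489), the only 1 of the 10 genes whose tumors and ANTs did not overlap (7.06% of all genes, and 2.96% in this direction). An adjusted p that misses the threshold does not show that tumors and ANTs were alike.

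The tissues also differed in their cell makeup, by marker genes summed in linear signal and set to a normal mean of 100%. Fewer cells of a type and less RNA per cell cannot be told apart in whole tissue. The 12 smooth muscle markers stood at 69.8%, 2.47% and 2.88% in tumors 1, 2 and 3 and at 35.0%, 10.6% and 4.50% in ANTs 1, 2 and 3. Normal bladders ranged from 98.7% to 102%. By limma, 6 of these markers fell in tumors and 12 in ANTs. Fibroblast markers ranged from 9.01% to 77.7% in tumors and 23.1% to 64.2% in ANTs (0 and 4 of 8 lower by limma). Schwann cell and nerve markers ranged from 6.18% to 36.5% in tumors and 10.1% to 12.2% in ANTs. Markers of dividing cells ranged from 310% to 705% in tumors and 302% to 589% in ANTs, with 12 and 11 of 12 higher by limma. Markers of basal and squamous epithelium (10 of 13 measured) ranged from 194% to 277% in tumors, 201% to 303% in ANTs and 95.5% to 103% in normal bladders. Leukocyte markers ranged from 238% to 520% in tumors, 284% to 1070% in ANTs and 88.9% to 113% in normal bladders. By limma, 7 of these 12 rose in tumors and 8 in ANTs, with 0 lower. The brightest genes add most to this sum, and S100a8 and S100a9 rose by 6.52 and 6.75 in tumors. Ptprc and Itgam did not pass in tumors (0.73 and 0.78, adjusted p = 0.0912 and 0.497), though Ptprc rose by 1.72 in ANTs (adjusted p = 0.00267). Cd3e, Cd79b and Ms4a1 were dim in all tumors and normal bladders. In ANTs Cd79b was dim too, while Cd3e and Ms4a1 lay above normal bladder without overlap but did not pass (adjusted p = 0.0975 and 0.0667 by limma). Cd3d was dim in normal bladder, and it was at least 1.27-fold higher in tumors and 3.35-fold higher in ANTs (adjusted p = 0.01 and 0.000776). Markers of umbrella cells and of urothelium more widely were present but did not all stay level. The uroplakin gene Upk3a had mean log2 signals of 13.91 in tumors, 13.79 in ANTs and 14.06 in normal bladders. Of the 8 measured markers of this list, 1 rose and 2 fell in each tissue. The keratin gene Krt19 rose in both. Krt20 fell by 3.82 in tumors (adjusted p = 0.0208) and by 1.70 in ANTs (adjusted p = 0.00528). Upk1a fell by 1.31 in tumors (adjusted p = 0.0482) and Krt18 fell by 1.08 in ANTs (adjusted p = 0.0483). Upk2 had a log2 fold change of -2.10 in tumors that did not pass (adjusted p = 0.0652). The summed linear signal of this list, to which the brightest genes add most, ranged from 94.2% to 115% in tumors, 66.7% to 113% in ANTs and 96.9% to 105% in normal bladders.

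**Figure D3:**
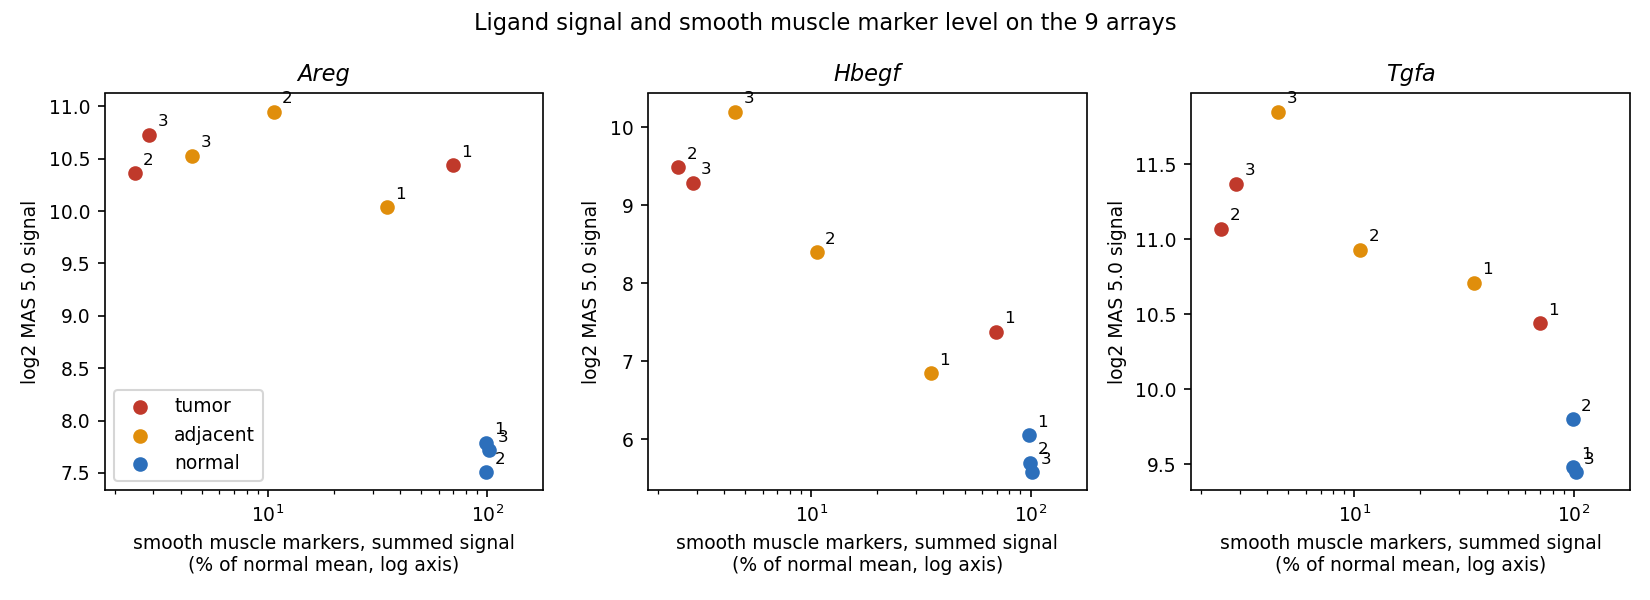
Log2 MAS 5.0 signal of Areg, Hbegf and Tgfa (brightest probe sets) against the summed signal of 12 smooth muscle markers in percent of the normal mean (log axis); each point is 1 array, numbered by replicate, of tumors (red), adjacent tissues (orange) or normal bladders (blue). Tumor 1, at 69.8%, and adjacent tissue 1, at 35.0%, have the lowest Hbegf and Tgfa signals of their groups. Their Areg signals are 10.44, between the other tumors, and 10.04, the lowest of the adjacent tissues. All these signals lie above the normal bladders.

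The ligand levels can be set beside these markers array by array. Tumor 1 and ANT 1, with the most smooth muscle signal of their groups, had the lowest Hbegf and Tgfa of their groups. These arrays also had the most fibroblast signal and the least dividing cell and basal marker signal of their groups. ANT 3, with the highest leukocyte and basal marker levels, had the highest Hbegf and Tgfa of all 9 arrays. Areg in tumor 1 was 10.44, between the other tumors, and in ANT 1 it was 10.04, the lowest of the ANTs. The part of the cell makeup in the group differences of Areg, Hbegf, Tgfa, Ereg, Egf, Egfr and Erbb2 was not tested. The log2 rise of Areg was 2.87 in tumors without tumor 1 and 3.06 in ANTs without ANT 1. The tumors and ANTs left in these fits had smooth muscle markers at 2.47% to 10.6% of the normal mean, so the fits do not test the part of the cell makeup.

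Other genes of the pathway were counted over 6 lists of 79 genes, of which 69 were measured. In tumors 17 rose and 3 fell, and in ANTs 16 rose and 2 fell, with median log2 fold changes of 0.31 and 0.26, beside 0.05 and 0.01 over all genes. Of all genes, 23.5% passed in tumors (13.6% higher and 9.95% lower) and 24.8% in ANTs (13.3% higher). The pathway count in tumors turned on single arrays: it was 25 higher and 9 lower without tumor 1, 12 higher and 1 lower without tumor 3, and 8 to 10 higher and 1 lower without any 1 of the normal bladders. In ANTs it was 8 or 9 higher and 0 lower without any 1 of the normal bladders. Among the other ligands, 1 of 3 measured genes rose in tumors and in ANTs. It was Nrg1, a neuregulin that binds ERBB3 and ERBB4, with a log2 rise of 2.47 in tumors (SE 0.42, adjusted p = 0.0107, but 0.0513 without normal bladder 3) and of 2.39 in ANTs (SE 0.42, adjusted p = 0.0074). Nrg4, an ERBB4 ligand, had a log2 fold change of -0.77 in tumors that did not pass (adjusted p = 0.248).

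Of 8 measured genes that shed the ligands or regulate shedding, 3 rose and 0 fell in tumors, and 4 rose and 0 fell in ANTs. Of all genes, 13.6% were higher in tumors and 13.3% in ANTs. The metalloproteinase genes Adam9, Adam15 and Adam19 did not pass and had negative log2 fold changes in tumors (-0.19, -0.50 and -1.03) and in ANTs (-0.38, -0.28 and -0.67). Adam17, the main sheddase of Areg, Hbegf and Tgfa, rose by 1.05 in tumors (SE 0.11, adjusted p = 0.00311) and by 1.35 in ANTs (SE 0.18, adjusted p = 0.00272). Its regulator Rhbdf1 (iRhom1) rose by 0.92 and 1.09 (adjusted p = 0.0197 and 0.00326). Adam8, a metalloproteinase of leukocytes and tumor cells, rose by 4.70 and 4.23 (adjusted p = 0.00253 and 0.000411), on arrays whose leukocyte markers were raised as given above. Adam17 and Adam8 kept their calls without each array in turn in both comparisons. Rhbdf1 kept its call in ANTs but lost it in tumors without tumor 3 or any 1 of the normal bladders (adjusted p up to 0.0764), and without tumor 1 the list had 5 genes higher and 2 lower.

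Among the membrane partners, 3 of 8 rose in tumors and 2 in ANTs, with 0 lower, where 13.6% and 13.3% of all genes were higher. Muc4, a membrane mucin that binds ERBB2, was dim in normal bladder and at least 14.9-fold higher in tumors and 6.90-fold higher in ANTs (adjusted p = 0.0129 and 0.00299). Sdc1, a heparan sulfate proteoglycan of epithelia, rose by 1.42 and 1.10 (adjusted p = 0.00361 and 0.00238). Cd44, a hyaluronan receptor that presents HB-EGF, rose by 0.82 in tumors (SE 0.17, adjusted p = 0.0199) and had a log2 fold change of 0.84 in ANTs that did not pass (adjusted p = 0.0594). In tumors, Muc4 was lost without tumor 3 or normal bladder 1 or 3 (adjusted p up to 0.0604) and Cd44 without tumor 3 or normal bladder 1 or 2 (up to 0.0679).

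Of 22 adaptors and kinases measured, 2 rose and 3 fell in tumors, and 4 rose and 2 fell in ANTs, close to the shares of all genes that passed (23.5% in tumors and 24.8% in ANTs). Vav3, a guanine nucleotide exchange factor, rose by 1.37 in tumors (SE 0.17, adjusted p = 0.00469) and by 1.17 in ANTs (SE 0.30, adjusted p = 0.0313). Grb7, an adaptor that binds ERBB2 and lies near its gene in humans, rose by 0.90 in tumors (adjusted p = 0.0287) and had a log2 fold change of 0.49 in ANTs (adjusted p = 0.287). The docking protein gene Gab1 fell by 1.11 in tumors (adjusted p = 0.00636) and by 0.83 in ANTs (adjusted p = 0.018), and the phosphatase gene Ptpn11 fell by 0.50 (adjusted p = 0.0177) and by 0.60 (adjusted p = 0.0123). In tumors, Grb7 was lost without tumor 2 or 3 or any 1 of the normal bladders (adjusted p up to 0.105) and Ptpn11 without tumor 3 or any 1 of the normal bladders (up to 0.0827), while Vav3 and Gab1 held, and without tumor 1 the list had 5 higher and 5 lower. In ANTs 0 genes of this list passed without any 1 of the normal bladders, and Vav3 was lost also without ANT 1 or 2 (adjusted p up to 0.112).

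Among feedback inhibitors, 2 of 14 measured rose and 0 fell in each tissue, close to the shares of all genes that were higher (13.6% in tumors and 13.3% in ANTs). Without tumor 1 the list had 2 higher and 2 lower in tumors, and without any 1 of the normal bladders 1 gene was higher in each tissue, as it was in ANTs without ANT 2, while without ANT 3 it had 2 higher and 1 lower in ANTs. With all arrays the 2 that rose were Dusp5 and Cblc. Dusp5, a nuclear phosphatase of ERK, rose by 1.58 in tumors and 1.33 in ANTs (adjusted p = 0.0111 and 0.0413). Cblc, a ubiquitin ligase of epithelia, rose by 1.53 and 1.33 (adjusted p = 0.00521 and 0.00239). Errfi1, Spry1 and Spry4 did not pass in tumors, though their tumors and normal bladders did not overlap. Their log2 fold changes were -1.28, -0.73 and 0.33 (adjusted p = 0.0517, 0.0681 and 0.241 by limma). Genes that ERK signaling is known to induce had 6 of 14 higher and 0 lower in tumors, where 13.6% of all genes were higher. That count was 8 without tumor 1, 4 without tumor 2, 3 without tumor 3, and 2 or 3 without any 1 of the normal bladders. Fos, Egr1 and Egr3 did not pass in tumors (log2 fold changes 0.44, 0.49 and 0.31, adjusted p = 0.636, 0.681 and 0.678 by limma). Neither did Etv5 and Maff (-0.16 and -0.08, adjusted p = 0.822 and 0.871). In ANTs 3 of the 14 were higher and 0 lower, where 13.3% of all genes were higher. That count was 8 without ANT 1, 2 without ANT 2, 1 without normal bladder 1 or 2, and 0 without normal bladder 3. Fosl1, an AP-1 subunit, was dim in normal bladder and at least 7.14-fold higher in tumors and 5.12-fold higher in ANTs (adjusted p = 0.00232 and 0.0166). Plaur, the urokinase receptor, which leukocytes also carry, rose by 2.15 in tumors (SE 0.33, adjusted p = 0.00826), and the ephrin receptor gene Epha2 rose by 1.65 (SE 0.30, adjusted p = 0.0132) and in ANTs by 1.59 (SE 0.38, adjusted p = 0.0239). Phlda1, a pleckstrin domain gene, rose by 1.57 in tumors (adjusted p = 0.0316). Plaur and Phlda1 did not pass in ANTs, where their log2 fold changes were 1.50 and 1.49 (adjusted p = 0.0698 and 0.207). Cblc kept its call without each array in both comparisons, and so did Fosl1 and Plaur in tumors. Without any 1 of the normal bladders Dusp5 and Epha2 lost theirs in both tissues, Phlda1 in tumors and Fosl1 in ANTs (adjusted p up to 0.132). Without tumor 3 Epha2 and Phlda1 also lost their calls in tumors, and Phlda1 without tumor 2 as well, and in ANTs Dusp5 and Epha2 lost theirs without ANT 2 and Dusp5 without ANT 3.

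**Figure D4:**
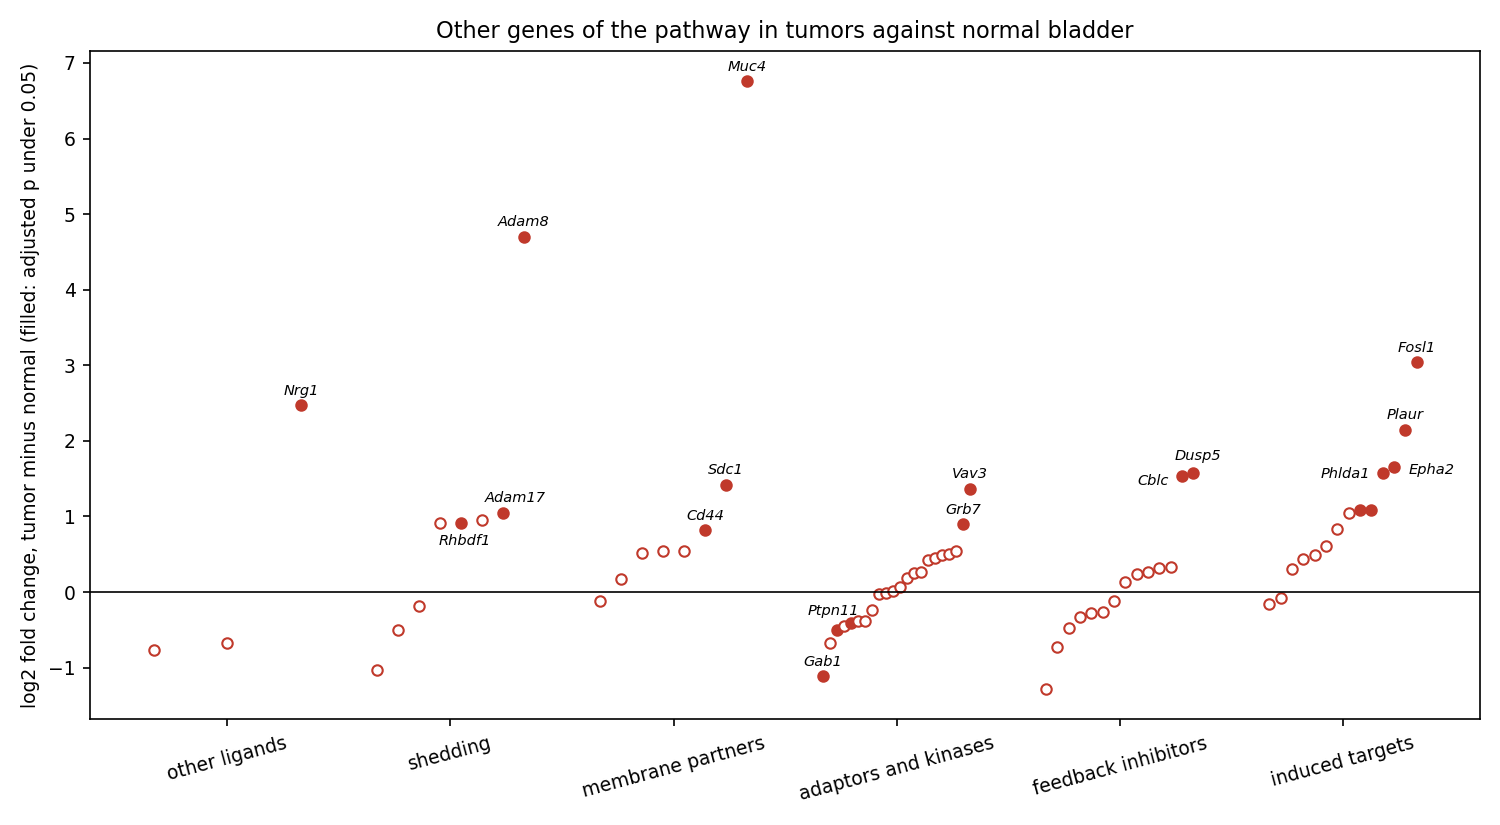
Log2 fold change in tumors minus normal bladders of the 69 measured genes of 6 pathway lists, ranked within each list. Filled points have an adjusted p under 0.05 by limma, and the genes described in the text that passed are named. Most points of the adaptor and feedback lists lie near 0, while Muc4 (6.76, from a dim normal level), Adam8 (4.70) and Fosl1 (3.04, from a dim normal level) lie at the top.

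The genes most like each member in pattern were taken by Pearson's r over the 9 arrays, among 9991 genes with a mean signal of at least 100. These arrays span the 3 groups, so r includes the difference between groups, and it is given as a description. For Areg they were Tprg1l (r = 0.993) and Anxa1, the annexin A1 gene (0.992). For Hbegf they were Epha2 (0.993) and the transcription factor gene Bhlhe40 (0.987), and for Tgfa the chemokine gene Cxcl16 (0.992) and the scramblase gene Plscr1 (0.990). Egf was followed most closely by Dtwd1 (0.986) and the glypican gene Gpc6 (0.983). Egfr was followed by the transcription factor gene Nfil3 (0.948) and the SUMO protease gene Senp6 (0.925), and Erbb2 by Ccdc115 (0.951) and Mtus1 (0.950).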

How the data were processed

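RNA of 9 bladder samples was labelled by 3′ in vitro transcription, hybridised to Affymetrix rat arrays and scanned with Command Console Software 3.1. The authors used the MAS 5.0 algorithm (MAS5 in the submitters' processing notes) and Gene Spring Software 11.0. Their deposited log2 values were kept as they were, since each array had a linear mean of 500.1 to 500.2 once the top and bottom 2% were trimmed. The 57 array controls were left out. Dim probe sets (signal under 50) made up 30.4% to 36.1% of the 31042 on each array. Replicates spread more at low signal: the median SD in a group was 1.02 for log2 values of 4 to 5, against 0.251 for 9 to 10.

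Probe sets were named by the platform annotation, and the brightest over 9 arrays stood for a gene. Each pair of groups was fitted with limma 3.58.1 in R 4.3.3 (lmFit, eBayes with a variance trend), with Benjamini-Hochberg adjustment over all 31042 probe sets. The code was tested on simulated data. The members, the gene lists and the limit of 50 were chosen with earlier results of these data known. Pathway genes picked for the text are, per list, up to 4 past the threshold whose tumors and normal bladders do not overlap, by size of change, or else the 2 with the smallest p. Some genes that did not pass are named beside them. Folds given as "at least" set the mean of the brighter group against a signal of 50. The design text describes 3 tumor-bearing and 3 normal rats; p-values measure the spread between these samples.

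The alternatives tried were quantile normalization, median centring, leaving out probe sets under the 40th percentile, adding 50 to the signal, fitting without a variance trend or with all 9 arrays together, blocking on the replicate number, dropping single arrays, the methods' t-test, and averaging a gene's probe sets. Precision is limited by 3 arrays per group. Promoters are from RefSeq (GRCr8).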

Additional observations from a re-analysis of the deposited data

How the results depend on the processing

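Of the 10 genes, 4 passed in tumors against normal bladder and 3 in ANTs against normal bladder. Areg passed in both under every alternative run. Leaving out single arrays gave 1 to 6 genes in tumors and 2 to 4 in ANTs, and 1453 to 9216 and 2691 to 7198 probe sets (5574 and 5873 with all arrays). After Benjamini-Hochberg adjustment the methods' t-test passed 1 gene, Areg, in each comparison, with 1764 and 2394 probe sets; unadjusted it passed 6 and 2 genes and 8800, 8813 and, for tumors against ANTs, 1029 probe sets. Without a variance trend 2376 and 3414 probe sets passed. With arrays centred on their medians, which moved the median over all probe sets from -0.05 to 0.15 in tumors and from -0.09 to 0.12 in ANTs, 5 genes passed in ANTs (Erbb2 and Ereg in addition) and Egfr lost its call in tumors. The cause of these differences was not tested. Averaging the probe sets of Egfr, 1 of them dim, gave log2 fold changes of 0.04 in tumors against normal bladder and 0.14 against ANTs. Leave-one-out values changed sign for Erbb3 in ANTs (-0.25 to 0.68) and, in tumors against ANTs, for Areg (-0.23 to 0.23), Hbegf (-0.58 to 1.09), Tgfa (-0.43 to 0.14), Erbb2 (-0.23 to 0.06) and Erbb3 (-0.25 to 0.68), none of which passed in those comparisons. Egf passed in tumors under the filter (adjusted p = 0.0345) and with 50 added (0.0388). Ereg passed in tumors under quantile normalization (0.0351), with median centring (0.0422) and with 50 added (0.0405). In ANTs Ereg passed under quantile normalization (0.0353), with median centring (0.0392) and with all 9 arrays in one fit (0.0398).

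The replicate number as a block left 4 genes called in tumors and gave 4 in ANTs (Erbb2 in addition, adjusted p = 0.0374), with 3705 and 4717 probe sets, and 0 genes and 0 probe sets for tumors against ANTs. The normal bladders came from other rats, so against them the block joined unrelated animals by number and reflects no pairing. Deviations from group means of same-numbered arrays correlated there at -0.0135 to 0.0312. The design pairs tumors with ANTs, but no label says that a shared number is a shared rat, and deviations from group means of same-numbered tumor and ANT arrays correlated at 0.240, 0.0443 and 0.137; tumor 2 correlated best with ANT 3 (0.106). Signals under 50 limit what Btc, Ereg, Erbb3 and Erbb4 can show.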
